A study of Brassica napus with 2 samples.

Results

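The enzymes of the shikimate pathway, of the routes from chorismate to phenylalanine, tyrosine and tryptophan, and of the further use of tyrosine and chorismate were examined in seeds of *Brassica napus*. They were chosen from the table of unigenes, which are the clusters of transcripts that the authors assembled from their reads. A unigene was taken where the authors had assigned a gene of *B. napus* to it and where its best Swiss-Prot description named shikimate (other than shikimate O-hydroxycinnamoyltransferase), 3-dehydroquinate, chorismate, phospho-2-dehydro-3-deoxyheptonate, arogenate, prephenate, anthranilate, tryptophan synthase, indole-3-glycerol, tyrosine aminotransferase or homogentisate. These words were found in 67 unigenes, of which 9 had no assigned gene. The set thus holds 58 of the 50366 unigenes, and they carry 53 genes. The rule reads descriptions alone and no measured value, but it was set with earlier results of these data known.

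Whole seeds of the brown-seeded line Cy2B (genotype *yy*) and of its yellow-seeded near isogenic line Cy2Y (genotype *YY*) were compared at 26 days, an age that the sample labels count from flowering and the study's methods from pollination. Both lines descend from 1 heterozygous plant by repeated selfing, and were raised in the field. In these lines the colour of the seed coat follows the genotype of the embryo, and phenylalanine is the amino acid from which flavonoid pigments are made, so the comparison asks whether the enzymes that supply it differ in transcript level. With 1 library for each line there is no replicate error: the test below sets 1 library against the other rather than line against line, and each interval covers counting error only.

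In plants the shikimate pathway joins phosphoenolpyruvate and erythrose 4-phosphate in the plastid and leads through shikimate to chorismate. Chorismate is the branch point: chorismate mutase opens the way to phenylalanine and tyrosine, anthranilate synthase the way to tryptophan, and isochorismate synthase the way to phylloquinone and salicylic acid. In most plants phenylalanine is made from arogenate by arogenate dehydratase, and the bulk of it enters lignin, flavonoids and other phenylpropanoids. Tyrosine gives homogentisate, the head group of tocopherols and plastoquinone, and in oilseeds tocopherols protect the stored oil.

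The reads counted on unigenes, rounded per unigene, came to 23575447 in the library of brown seeds and 23236592 in that of yellow seeds. An assigned gene was given for 28771 unigenes. Transcripts of the embryo, taken as cruciferins, napins and oleosins, came to 535 RPKM in brown seeds and 2203 RPKM in yellow seeds. Of these 24 unigenes, 17 rose and 2 fell by the test described below, and in each library 1 was without a read. Their median log2 ratio of yellow over brown, with 1 read added to each count, was 2.38 over the 22 with at least 20 reads. RPKM divides the reads of a unigene by its length and by the mapped reads of the library, so levels can be compared between genes. The 7 unigenes of the seed coat list (anthocyanidin reductase, GLABRA 2, the GLABRA2 expression modulator and laccase-15) summed to 624 and 671 RPKM, with 1 laccase-15 unigene at 0 in brown seeds and none called. The modulator entered this list through its name. Over the 6 with at least 20 reads, the median log2 ratio of yellow over brown, with 1 read added to each count, was -0.26. Here the sum and the median lay on opposite sides of no difference. The endosperm list matched no unigene. The 2 unigenes of the small chain of Rubisco, a marker of green tissue, summed to 636 and 864 RPKM, and neither was called. The part of these differences in the values below was not tested, and in whole seeds fewer cells of a type and less RNA per cell cannot be told apart.

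The aromatic amino acid enzymes were transcribed at nearly the same level in brown and yellow seeds. All 58 unigenes together held 45324 reads in brown seeds and 45862 in yellow seeds, or 0.192% and 0.197% of the reads counted on unigenes. Their summed level was 1112 RPKM in brown and 1144 RPKM in yellow seeds, a ratio of 1.03. The unigenes with a mean of at least 50 RPKM were a dehydroquinate synthase, an arogenate dehydratase and the alpha and beta chains of tryptophan synthase. A further 29 had a mean of 10 to 50 RPKM and 25 lay lower. The median of the mean RPKM was 11.3 over the 58 unigenes, against 5.04 over all unigenes with an assigned gene.

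**Figure D1:**
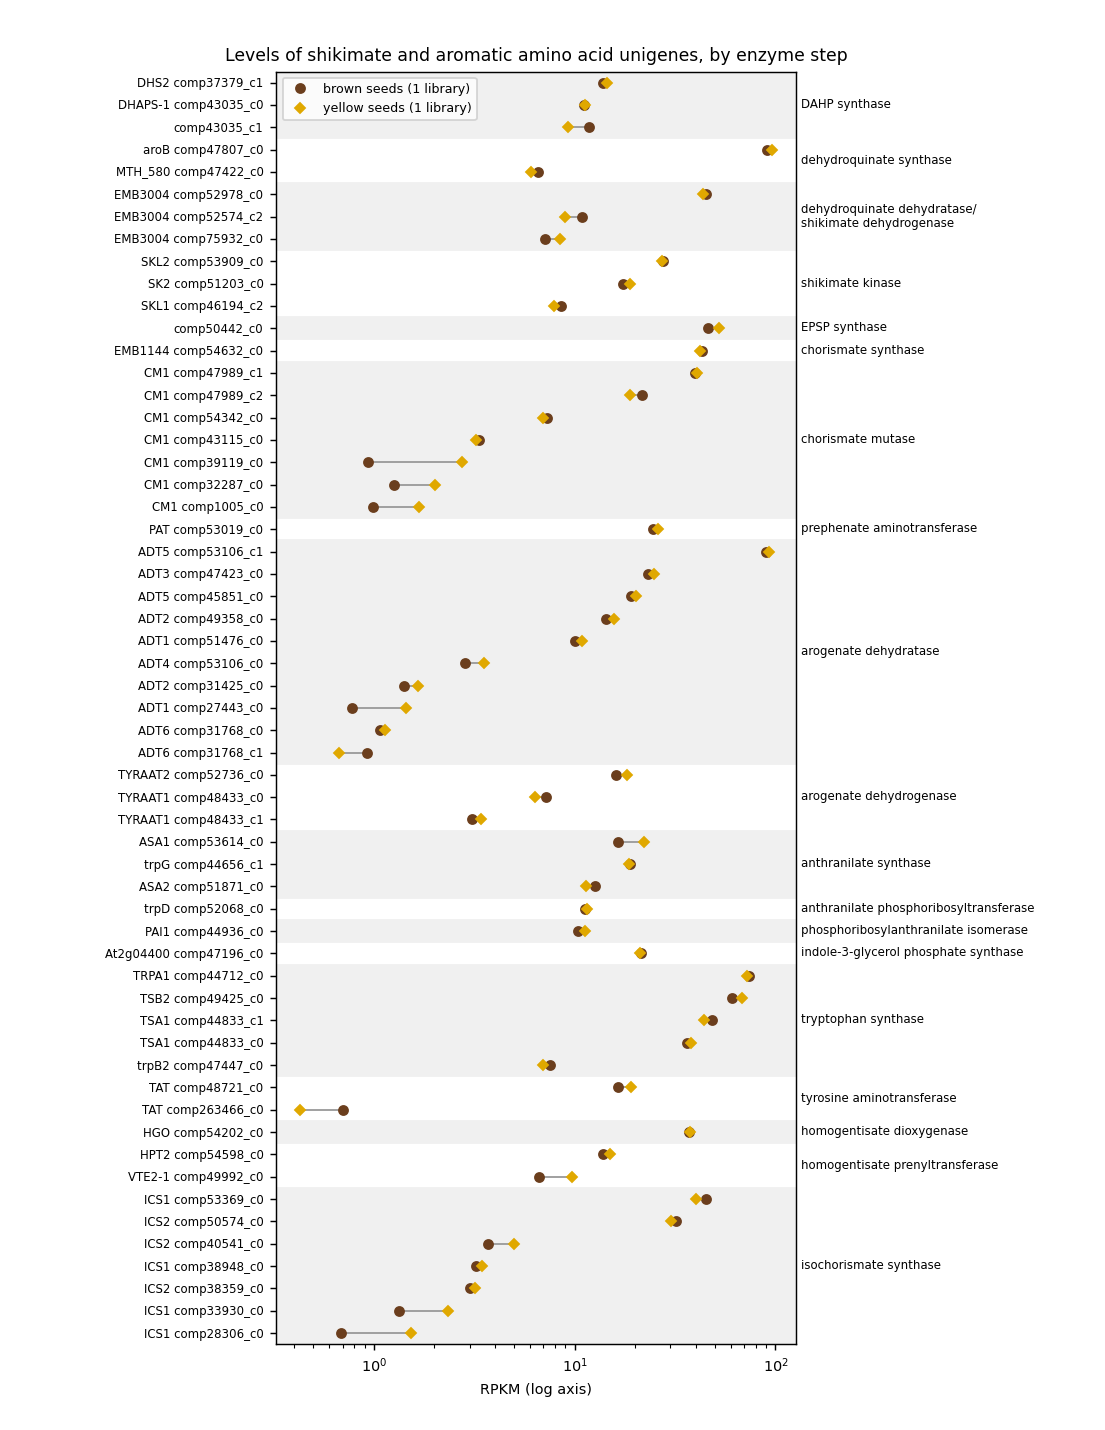
RPKM on a log axis of the 57 unigenes with a read in both libraries, ordered by enzyme step. Brown circles give brown seeds and yellow diamonds yellow seeds, with 1 library each, joined by a grey line. The pairs lie close together except among unigenes of a few RPKM, and the top pair is a dehydroquinate synthase at 91.2 and 96.1 RPKM.

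A unigene was called where a two-sided Fisher's exact test of its reads against all other reads gave a Benjamini-Hochberg adjusted p under 0.05 over all 50366 unigenes and the log2 ratio of yellow over brown was above 1 or below -1. By this rule 1 of the 58 unigenes, a chorismate mutase, was higher in yellow seeds and none was lower. The background was 3.28% higher and 1.47% lower over all unigenes, and 2.69% higher and 1.32% lower over those with an assigned gene. Without a fold threshold, the adjusted p was under 0.05 for 7 of the 58 with more reads in yellow seeds and for 1 with fewer. Such a difference, of any size, is named beyond counting error in what follows. That background was 10.9% higher and 10.6% lower over unigenes with an assigned gene. At an unadjusted p under 0.05 the counts were 8 higher and 2 lower. The share over all unigenes at that threshold was not computed, so these counts have no background. Under an assumed biological coefficient of variation of 0.1 between libraries, edgeR's exact test left no adjusted p under 0.05 among the 8 unigenes beyond counting error, and theirs ran from 0.151 to 0.894.

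Over the 52 unigenes with at least 20 reads in the libraries together, the median log2 ratio, with 1 read added to each count, was 0.08 (95% distribution-free interval -0.02 to 0.12). It was -0.01 over all unigenes with an assigned gene and the same minimum. In 33 of the 52 the ratio was above 1 and in 19 below. Over all unigenes with an assigned gene and that minimum, 10834 lay above 1 and 11413 below. By fold alone, 3 of 52 lay above 1.5-fold (background 8.37%) and none lay below it (background 6.95%). Within 1.25-fold lay 45 of 52 (86.5%), beside 67.7% of the 22247 unigenes with an assigned gene and that minimum. With at least 100 reads, these shares were 40 of 43 (93.0%) and 76.5%. They were not matched for depth: the median was 660.5 reads over the 58 and 205 over all unigenes with an assigned gene. The middle 50% of log2 ratios ran from -0.24 to 0.24 at 160 to 320 reads. At 640 to 1280 reads it ran from -0.15 to 0.14. The 95% interval of the ratio lay within 2-fold for 47 of the 52 and within 1.5-fold for 38. The intervals of the other 5, the called unigene among them, reached past 2-fold. The 6 unigenes with fewer than 20 reads had at most 18 and are left out of these medians and shares.

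**Figure D2:**
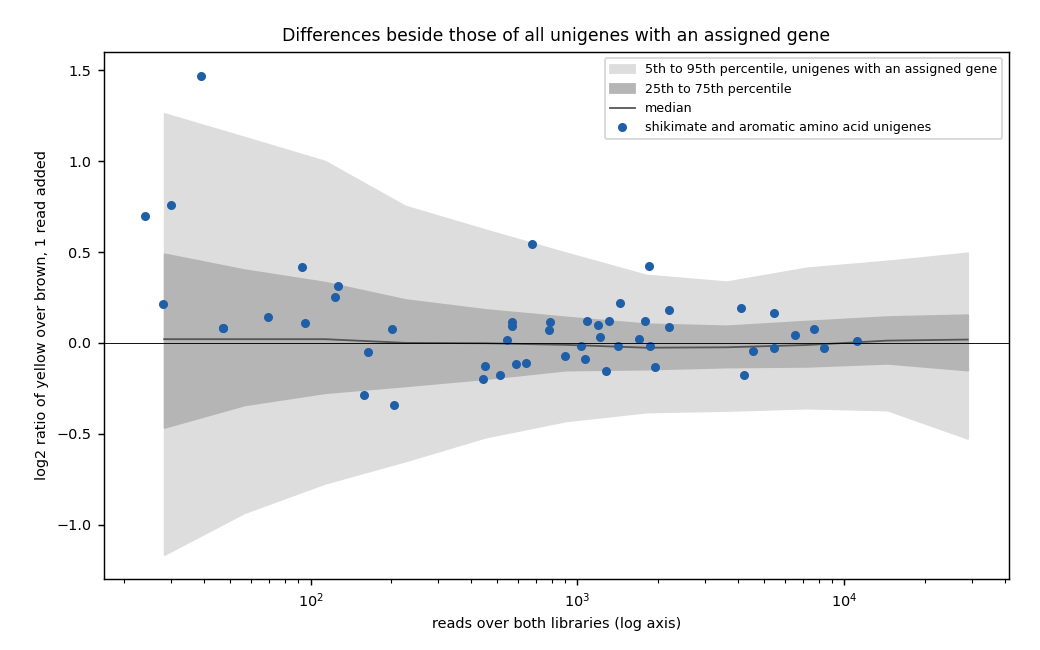
Log2 ratio of yellow over brown seeds, with 1 read added, against the reads of both libraries on a log axis. Blue points are the 52 unigenes with at least 20 reads, the bands hold the middle 50% and 90% of all unigenes with an assigned gene in each range of reads, and the line is their median. Most points lie inside the narrow band. A chorismate mutase with 39 reads (1.47), VTE2-1 (0.54) and ASA1 (0.42), described below, lie above the 95th percentile of their range of reads, which is 1.26, 0.50 and 0.37.

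The first steps lead from central metabolism to shikimate. DAHP synthase, which makes the first compound of the pathway, had 3 unigenes with low levels. The DHS2-type unigene comp37379_c1 on chromosome C01 had 99 reads in brown seeds and 103 in yellow seeds, 13.8 and 14.6 RPKM, a ratio of 1.06 (95% interval 0.793 to 1.41). Another DAHP synthase unigene, comp43035_c0 on C06, had 272 and 271 reads, 11.1 and 11.2 RPKM. The third, comp43035_c1 on A07, had 116 and 90 reads, a ratio of 0.787 (0.591 to 1.05), which was the lowest ratio in the set among unigenes with 20 reads or more. All 3 intervals held 1. Most DAHP synthase reads, however, fell on comp51009_c0, which has no assigned gene and stands outside the 58. Singled out after its values were seen, it had 4078 reads in brown seeds and 4868 in yellow seeds, 90.6 and 110 RPKM, a ratio of 1.21 (1.16 to 1.26). Its adjusted p was 8.41e-18 by Fisher's exact test, and it was not called because it did not reach 2-fold.

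Dehydroquinate synthase closes the first ring of the pathway. Its unigene comp47807_c0 (GSBRNA2T00005642001, chromosome A09, 3897329 to 3899206) was the most abundant of the set. It had 3788 reads in brown seeds and 3934 in yellow seeds, 91.2 and 96.1 RPKM, a ratio of 1.05 (1.01 to 1.10) with an adjusted p of 0.111 by Fisher's exact test. A second unigene of this description, comp47422_c0 on A06, had 237 and 214 reads and 6.61 and 6.06 RPKM. Its best Swiss-Prot hit is an archaeal protein and it has no entry in KO, the KEGG list of orthologues, so its place in this step rests on that hit.

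Dehydroquinate dehydratase and shikimate dehydrogenase are 1 fused protein in plants and make shikimate. The main unigene, comp52978_c0, has its gene on sequence without a chromosome and had 2315 reads in brown seeds and 2217 in yellow seeds, 44.9 and 43.6 RPKM, a ratio of 0.972 (0.916 to 1.03). A short unigene on C03, comp52574_c2, had 88 and 71 reads, and another on A03, comp75932_c0, had 57 and 67. These lay on opposite sides of 1, at 0.819 and 1.19, and all 3 intervals held 1.

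Shikimate kinase adds the phosphate that the next step needs. The kinase SK2, comp51203_c0 on A01, had 635 reads in brown seeds and 681 in yellow seeds, 17.4 and 18.9 RPKM, a ratio of 1.09 (0.975 to 1.21). The kinase-like proteins SKL2 and SKL1, which in Arabidopsis do not act as shikimate kinases, carry the same word. SKL2, comp53909_c0 on C04, had 944 and 920 reads and 27.6 and 27.3 RPKM. SKL1, which Arabidopsis needs to build chloroplasts, was comp46194_c2 on A06 with 307 and 279 reads and 8.55 and 7.89 RPKM. None of the 3 differed beyond counting error.

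EPSP synthase, the target of the herbicide glyphosate, adds phosphoenolpyruvate to shikimate 3-phosphate. Its unigene comp50442_c0 (GSBRNA2T00101527001, chromosome C03, 14196946 to 14199182) had 1935 reads in brown seeds and 2179 in yellow seeds, 45.9 and 52.4 RPKM. The ratio of 1.14 (1.07 to 1.22) had an adjusted p of 0.000286 by Fisher's exact test, and this was the single member of the shikimate pathway itself that differed beyond counting error. Chorismate synthase, the last step, had 4270 and 4122 reads in comp54632_c0 on C05, 43.2 and 42.3 RPKM, a ratio of 0.979 (0.938 to 1.02). This unigene is 4188 bp long and its gene spans 2707 bp, so part of its sequence lies outside the gene model. Over the 13 unigenes from DAHP synthase to chorismate synthase, none was called, the median log2 ratio was -0.02 and the summed level was 340 RPKM in brown and 347 RPKM in yellow seeds.

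**Figure D3:**
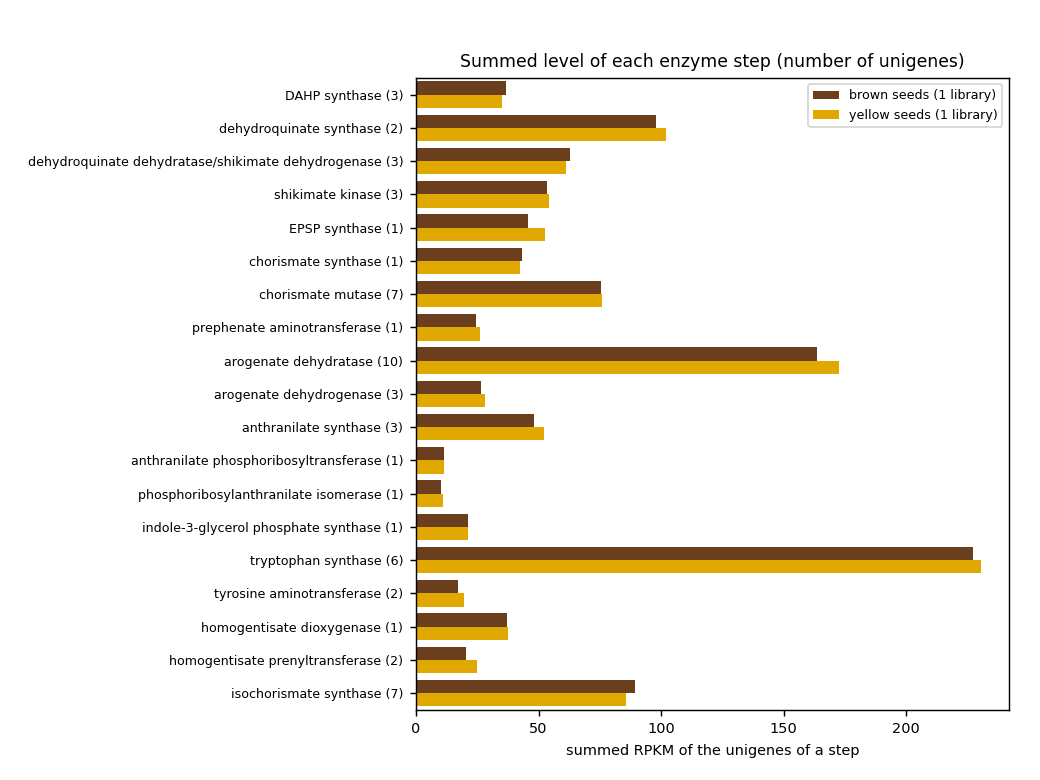
Summed RPKM of each enzyme step in brown seeds (brown bars) and yellow seeds (yellow bars), with 1 library per line and the number of unigenes in brackets. Bars start at 0 and carry no error bars since there are no replicates. The bars of a step lie side by side at nearly equal length, with tryptophan synthase (227 and 230 RPKM) and arogenate dehydratase (163 and 173 RPKM) the longest. The largest relative gap is that of homogentisate prenyltransferase at 20.5 and 24.8 RPKM.

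Chorismate mutase turns chorismate into prephenate, and in Arabidopsis the plastid enzyme CM1 is inhibited by phenylalanine and tyrosine and activated by tryptophan. It had 7 unigenes, all described as CM1. Most reads fell on the gene GSBRNA2T00144509001 (chromosome A06, 20877218 to 20878642), in a pair of unigenes. In comp47989_c1 there were 848 reads in brown seeds and 849 in yellow seeds, 39.8 and 40.5 RPKM. The other, comp47989_c2, had 239 and 205 reads, 21.7 and 18.9 RPKM, a ratio of 0.870 (0.719 to 1.05). Summed over the gene, the reads were 1087 and 1054, a ratio of 0.984 (0.903 to 1.07). The A07 unigene comp54342_c0 had 462 and 434 reads and 7.27 and 6.92 RPKM, and comp43115_c0 on C02 had 84 and 80 reads and 3.35 and 3.23 RPKM. The major copies thus showed no difference beyond counting error.

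The called unigene was a minor copy of chorismate mutase. It is comp39119_c0, 451 bp long, with the gene GSBRNA2T00109597001 on chromosome C09 (1115493 to 1117074). It had 10 reads in brown seeds and 29 in yellow seeds, 0.94 and 2.77 RPKM, a ratio of 2.94 (1.39 to 6.77) with an adjusted p of 0.017 by Fisher's exact test. The call rested on 39 reads and was lost when counts were halved and under every assumed spread between libraries. Its level in yellow seeds was a small part of the 75.3 RPKM in brown and 76.0 RPKM in yellow seeds that all chorismate mutase unigenes summed to. Of the other rare copies, comp1005_c0 on A07, which the NR database describes as chorismate mutase 3, had 9 and 15 reads, a ratio of 1.69 (0.693 to 4.38), and the remaining copy had 18 reads in all.

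Prephenate aminotransferase, which makes arogenate, had 1 unigene, comp53019_c0 (GSBRNA2T00149701001, chromosome C04, 36172084 to 36174114). It had 1076 reads in brown seeds and 1126 in yellow seeds, 24.5 and 26.0 RPKM, a ratio of 1.06 (0.976 to 1.16).

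Arogenate dehydratase removes water and carbon dioxide from arogenate and so makes phenylalanine. It had 10 unigenes, which covered all 6 types known from Arabidopsis, and none was called. The main form was ADT5. Its unigene comp53106_c1 on A03 had 3244 reads in brown seeds and 3296 in yellow seeds, 89.9 and 92.6 RPKM, a ratio of 1.03 (0.982 to 1.08). The assigned gene, GSBRNA2T00113477001 (20363300 to 20363779), spans only 480 bp against 1531 bp of unigene, so the gene model is shorter than the transcript. A second ADT5 unigene, comp45851_c0, without a chromosome, had 277 and 291 reads and 19.0 and 20.3 RPKM.

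The other types were less abundant. ADT3, comp47423_c0 on C04, had 579 reads in brown seeds and 611 in yellow seeds, 23.1 and 24.7 RPKM, a ratio of 1.07 (0.954 to 1.20). ADT2, comp49358_c0 on A05, had 525 and 563 reads, 14.4 and 15.7 RPKM, a ratio of 1.09 (0.964 to 1.23). ADT1, comp51476_c0 on C08, had 380 and 406 reads, 10.01 and 10.9 RPKM, a ratio of 1.08 (0.940 to 1.25). ADT4 and ADT6 were rare. ADT4, comp53106_c0 on A06, had 57 and 70 reads, 2.85 and 3.56 RPKM. ADT6 had 30 and 29 reads summed over the pair of unigenes of its gene on A09.

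Of the arogenate dehydratases, all 8 unigenes with 20 reads or more showed a ratio above 1, between 1.03 and 1.25. Each interval held 1, so none of these differences, taken singly, was larger than counting error. Over all 10 unigenes the level was 163 RPKM in brown and 173 RPKM in yellow seeds, a ratio of 1.06. Their summed reads were 5111 in brown seeds and 5292 in yellow seeds. No interval was computed for this sum, so a difference of the whole step beyond counting error was not tested. An ADT2-type unigene without an assigned gene, comp46131_c0, stands outside the set. Named after its values were seen, it lay below 1, with 60 and 46 reads and a ratio of 0.778 (0.518 to 1.16). Of the genes that share a Swiss-Prot entry with a main form, that of ADT2 on C03 had 13 and 15 reads and that of ADT1 on A06 had 6 and 11. Whether these are homoeologues of the main forms was not tested.

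Arogenate dehydrogenase makes tyrosine from arogenate. The unigene described as TYRAAT2, comp52736_c0 (GSBRNA2T00054243001, chromosome C05, 6917068 to 6919361), had 1044 reads in brown seeds and 1165 in yellow seeds, 16.2 and 18.3 RPKM. The ratio was 1.13 (1.04 to 1.23) and the adjusted p 0.0281 by Fisher's exact test. It is longer than its gene, at 2739 against 2294 bp, and its NR description is a CobW-like protein, so its reads cannot be given to the dehydrogenase alone. TYRAAT1 had 306 and 274 reads summed over the pair of unigenes of its A03 gene, a ratio of 0.908 (0.769 to 1.07). The TYRAAT1 and TYRAAT2 ratios lay on opposite sides of 1.

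From chorismate mutase to arogenate dehydrogenase there were 21 unigenes with a summed level of 290 RPKM in brown and 303 RPKM in yellow seeds. Of these, 1 was called, 18 had at least 20 reads, and their median log2 ratio was 0.10.

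**Figure D4:**
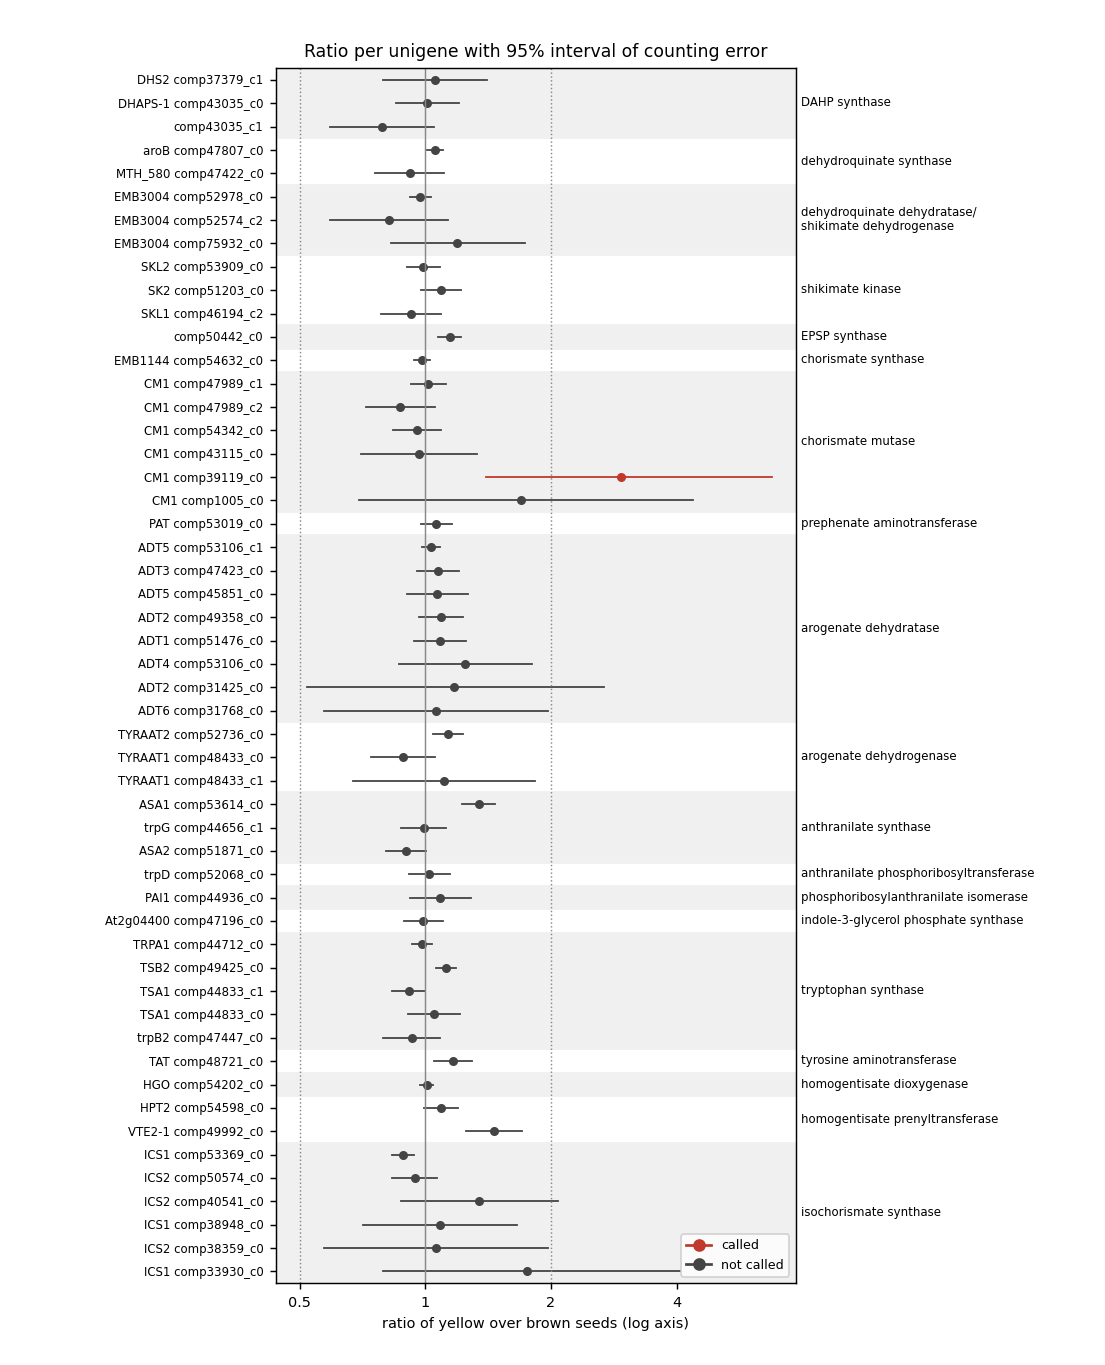
Ratio of yellow over brown seeds on a log axis for the 52 unigenes with at least 20 reads, ordered by enzyme step, with 1 library per line. Points give the ratio, bars the 95% exact binomial interval of counting error, dotted lines 2-fold, and red the called unigene. Only the chorismate mutase unigene comp39119_c0 (2.94) is red, and 42 of the 52 bars cross 1.

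Anthranilate synthase leads chorismate into tryptophan, and in plants its large subunit is inhibited by tryptophan. The large subunit ASA1, comp53614_c0 (GSBRNA2T00134394001, chromosome C03, 1072152 to 1074879), showed the difference with the lowest p of the set. It had 797 reads in brown seeds and 1053 in yellow seeds, 16.5 and 22.0 RPKM, a ratio of 1.34 (1.22 to 1.47) with an adjusted p of 1e-08 by Fisher's exact test. ASA2, comp51871_c0, also on C03, had 677 and 600 reads, 12.6 and 11.3 RPKM, a ratio of 0.899 (0.804 to 1.01). The small subunit, which takes the amino group from glutamine, was comp44656_c1 on A08 with 520 and 507 reads and 18.9 and 18.7 RPKM. So ASA1 had more reads in yellow seeds, while the intervals of ASA2 and of the small subunit held 1. The interval of ASA1 did not overlap that of ASA2.

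The middle steps of tryptophan synthesis had 1 unigene each. Phosphoribosylanthranilate isomerase PAI1, comp44936_c0 on C02, had 274 reads in brown seeds and 293 in yellow seeds, 10.3 and 11.2 RPKM, a ratio of 1.08 (0.917 to 1.28). Indole-3-glycerol phosphate synthase, comp47196_c0 on C03, had 717 and 699 reads, 21.3 and 21.1 RPKM, a ratio of 0.989 (0.890 to 1.10). The member described as anthranilate phosphoribosyltransferase, comp52068_c0 on C02, had 606 and 610 reads and 11.3 and 11.6 RPKM, and its best Swiss-Prot hit is bacterial. None of the 3 differed beyond counting error. The Arabidopsis-like form of this transferase, PAT1 in comp53851_c0, has no assigned gene and is outside the 58. Named after its values were seen, it had 2170 and 1877 reads, 58.1 and 51.0 RPKM, a ratio of 0.878 (0.825 to 0.934), with an adjusted p of 0.000467 by Fisher's exact test and no call.

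Tryptophan synthase releases indole with its alpha chain and joins it to serine with its beta chain, and at 227 RPKM in brown and 230 RPKM in yellow seeds it was the most abundant step. The alpha chain TRPA1, comp44712_c0 (GSBRNA2T00018448001, chromosome A09, 555535 to 556895), had 2774 reads in brown seeds and 2680 in yellow seeds, 73.8 and 72.4 RPKM, a ratio of 0.980 (0.929 to 1.03). The alpha chain TSA1 had 1409 and 1318 reads over the pair of unigenes of its A09 gene, a ratio of 0.949 (0.880 to 1.02). In contrast, the beta chain TSB2, comp49425_c0 (GSBRNA2T00085967001, chromosome A03, 24846784 to 24848769), had 2593 and 2863 reads, 61.0 and 68.3 RPKM, a ratio of 1.12 (1.06 to 1.18) with an adjusted p of 0.000385 by Fisher's exact test. The interval of TSB2 lay above those of TRPA1 and of the TSA1 gene sum. It overlapped that of the TSA1 unigene comp44833_c0 alone, at 1.05 (0.909 to 1.21). A second kind of beta chain, comp47447_c0 on C04, had 336 and 307 reads and 7.50 and 6.95 RPKM. Its ratio of 0.927 (0.792 to 1.09) lay on the side of the alpha chains. A further beta unigene on A08 had 0 and 3 reads. Over the 12 tryptophan unigenes none was called and the median log2 ratio of the 11 with at least 20 reads was -0.02.

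Tyrosine is turned over through 4-hydroxyphenylpyruvate and homogentisate. Tyrosine aminotransferase starts this route, and its unigene comp48721_c0 (GSBRNA2T00066214001, chromosome A05, 7437283 to 7439099) had 673 reads in brown seeds and 772 in yellow seeds, 16.4 and 19.0 RPKM, a ratio of 1.16 (1.05 to 1.29). The adjusted p was 0.0299 by Fisher's exact test. A second, on A09, had 5 and 3 reads. Homogentisate dioxygenase, which opens the ring in tyrosine breakdown, had 5610 and 5566 reads in comp54202_c0 on A02, 37.3 and 37.5 RPKM, a ratio of 1.01 (0.970 to 1.04). This unigene has 6380 bp against 3819 bp of gene and an NR description as a MutS protein, so its reads cannot be given to the dioxygenase alone.

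Homogentisate prenyltransferases use homogentisate for tocopherols and plastoquinone. VTE2-1, the homogentisate phytyltransferase that commits homogentisate to tocopherols, was comp49992_c0 (GSBRNA2T00067303001, chromosome A07, 894762 to 897098). It had 278 reads in brown seeds and 400 in yellow seeds, 6.66 and 9.72 RPKM, a ratio of 1.46 (1.25 to 1.71) with an adjusted p of 2.11e-05 by Fisher's exact test. This was the largest ratio in the set among the 43 unigenes with at least 100 reads. HPT2, comp54598_c0 on A03, had 867 and 929 reads, 13.8 and 15.1 RPKM, a ratio of 1.09 (0.990 to 1.19). The interval of VTE2-1 lay above that of HPT2. All 4 unigenes of tyrosine use with 20 reads or more lay above 1 with library totals as the scale, from 1.01 to 1.46. Homogentisate dioxygenase lay just below 1 with median-ratio scaling. The set does not hold 4-hydroxyphenylpyruvate dioxygenase, which stands between the aminotransferase and homogentisate. That enzyme was lower in yellow seeds, at 0.849 (0.763 to 0.946), with an adjusted p of 0.0201 by Fisher's exact test.

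Isochorismate synthase, which competes for chorismate, had 7 unigenes and entered the set through the word chorismate. The main form was ICS1, comp53369_c0 (GSBRNA2T00143642001, chromosome C06, 24745566 to 24749683). It had 2249 reads in brown seeds and 1960 in yellow seeds, 45.3 and 40.0 RPKM, a ratio of 0.884 (0.832 to 0.940) with an adjusted p of 0.00086 by Fisher's exact test. This was the only member with fewer reads in yellow seeds beyond counting error. ICS2, comp50574_c0 on C05, had 555 and 515 reads, 32.1 and 30.2 RPKM, a ratio of 0.941 (0.833 to 1.06). Its copies comp40541_c0 on A08 and comp38359_c0 on C08 had 40 and 53, and 23 and 24 reads.

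The other ICS1 copies were rare. The unigene comp38948_c0, without a chromosome, had 46 and 49 reads, a ratio of 1.08 (0.708 to 1.65), which holds both 1 and the ratio of the main form. A further gene without a chromosome had 16 and 30 reads over its pair of unigenes, a ratio of 1.90 (1.00 to 3.74). That gene was not called. Over all 7 the level was 89.3 RPKM in brown and 85.7 RPKM in yellow seeds, a ratio of 0.960, while the median log2 ratio of the 6 with at least 20 reads was 0.09. The sum and the median thus lay on opposite sides of no difference. A difference in direction between the main and the rare forms was not tested.

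The 8 unigenes beyond counting error in either direction were spread over the pathway, with 1 each in EPSP synthase, chorismate mutase, arogenate dehydrogenase, anthranilate synthase, tryptophan synthase, tyrosine aminotransferase, homogentisate prenyltransferase and isochorismate synthase. Of the 58, 7 were higher and 1 was lower, beside 10.9% higher and 10.6% lower over all unigenes with an assigned gene. Apart from the called chorismate mutase, the ratios of the 8 ran from 0.884 to 1.46. None of the 8 was an arogenate dehydratase, the step that makes phenylalanine.

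Swiss-Prot describes 48 of the 58 members as chloroplastic, a word that the rule did not search for. The share over all unigenes was not counted. A KO entry stands beside 52, and the best Swiss-Prot hit is an Arabidopsis protein for 49 and a bacterial or archaeal one for 4. On A chromosomes lie 31 and on C chromosomes 22, and 5 have no chromosome. The median log2 ratio was 0.07 over the 26 A copies and 0.05 over the 22 C copies with at least 20 reads. Lengths ran from 234 to 6380 bp, with 19 unigenes under 500 bp. A pair of unigenes came from the same gene for 5 genes, and 7 unigenes were longer than their gene. *B. napus* carries near-identical A and C copies, and reads may have been split between them.

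The steps that flank the pathway gave 27 further unigenes with an assigned gene, of which 2 were higher in yellow seeds, none was lower and 25 were not called. Over all unigenes with an assigned gene, 2.69% were called higher and 1.32% lower. The median log2 ratio was 0.10 over the 23 with at least 20 reads. Before the pathway, the phosphoenolpyruvate/phosphate translocator PPT2, which brings phosphoenolpyruvate into plastids, rose from 37 to 85 reads in comp46114_c0, a ratio of 2.33 (1.57 to 3.53) with an adjusted p of 0.000158 by Fisher's exact test. Its level was low, at 1.04 and 2.42 RPKM. Transketolase, which can make erythrose 4-phosphate, had 14245 and 17758 reads in comp54836_c0, a ratio of 1.26 (1.24 to 1.29). Plastid enolase ENO1, comp47543_c0, which makes phosphoenolpyruvate, had 76.0 and 102 RPKM, a ratio of 1.35 (1.29 to 1.41), and the cytosolic form ENO2, comp53813_c0, had 773 and 829 RPKM, a ratio of 1.07 (1.06 to 1.09). The word enolase also took in 2 enolase-phosphatases of the methionine cycle, which are no part of this supply.

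After the pathway, phenylalanine ammonia-lyase takes phenylalanine into phenylpropanoids. PAL4, comp52212_c0, had 6286 reads in brown seeds and 8472 in yellow seeds, 103 and 141 RPKM, a ratio of 1.37 (1.32 to 1.41). PAL2, comp50862_c1, had 109 and 106 RPKM, a ratio of 0.973 (0.943 to 1.00). Cinnamate 4-hydroxylase, comp54171_c0, the next enzyme, had 29.0 and 38.1 RPKM, a ratio of 1.31 (1.22 to 1.41). None of the 3 reached 2-fold, and only PAL4 and the hydroxylase differed beyond counting error.

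In tyrosine breakdown, 4-hydroxyphenylpyruvate dioxygenase, comp51590_c0, had a ratio of 0.849 (0.763 to 0.946) and was lower beyond counting error. GSTZ1, comp44112_c0, had a ratio of 0.941 (0.847 to 1.04) and did not differ beyond counting error. Fumarylacetoacetase, comp50322_c0, was higher beyond counting error, at 1.11 (1.06 to 1.15). Tryptophan aminotransferases lead tryptophan towards auxin. TAA1, comp46374_c1, had 360 and 327 RPKM, a ratio of 0.909 (0.889 to 0.929), and TAR4, comp43192_c0, had 109 and 94.3 RPKM, a ratio of 0.867 (0.834 to 0.901). The rare form TAR2, comp40567_c0, rose from 20 to 58 reads, a ratio of 2.94 (1.74 to 5.16) with an adjusted p of 0.00017 by Fisher's exact test. The 2 remaining unigenes of this step were rare, had fewer reads in yellow seeds and were not called.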

How the data were processed

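RNA of whole seeds was sequenced by the authors as paired ends with 1 library for brown (Cy2B) and 1 for yellow seeds (Cy2Y). The authors removed reads with adapters, unknown or low-quality bases, joined the libraries in 1 Trinity assembly and mapped their reads back to its unigenes. For the aligner and the read counter, a name is not given in the sources used here. Per unigene, the estimated counts were used as the authors deposited them, without scaling, and were rounded to whole numbers here. The authors computed the RPKM values from these counts, the unigene length and the mapped reads. Gene positions are those that the authors assigned from the Darmor-*bzh* genome of *B. napus*.

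The whole table was tested with Fisher's exact test, two-sided (SciPy 1.17.1), since DEGseq, which the paper names, was not installed. Its formula was written out anew as an alternative. No ratio is printed for a unigene with a count of 0. In the calls and the fold shares over all unigenes, such a count gave an infinite log2 ratio, which passed any fold threshold. Intervals of ratios are 95% exact binomial intervals. PCR reads are not independent molecules, so they cover counting error only. With 1 library per line there is no replicate check. The scripts ran in Python 3.11.15 with numpy 2.4.6, pandas 2.3.3 and matplotlib 3.10.9 and in R 4.3.3 with DESeq2 1.42.0 and edgeR 4.0.16, and were tested on simulated data.

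Members with at least 20 reads could be named, and in each enzyme step the 3 with the highest mean RPKM, any called member and any past 1.5-fold with at least 100 reads. Of flanking steps, the 2 highest and any called could be named. The members, enzyme steps and marker lists were chosen with earlier results of these data known. Alternatives were the DEGseq formula, scaling by TMM or by median ratios, edgeR's exact test with a biological coefficient of variation set at 0.1, 0.2 or 0.4, other minimum counts, thresholds and pseudocounts, halved counts, reads summed by gene, members by NR description and members without an assigned gene. Leaving out unigenes longer than their gene was added after seeing the data. No sequence of a member was used here.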

Additional observations from a re-analysis of the deposited data

How the results depend on the processing

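The count of 1 unigene higher in yellow seeds was 0 in edgeR's exact test with a biological coefficient of variation set at 0.1, 0.2 or 0.4, and 0 with halved counts, and stayed at 1 under the other alternatives run. The count lower in yellow seeds was 0 under all of them. At an unadjusted p under 0.05 by Fisher's exact test 2 members were lower, a count without a background share. The 3 unigenes past 1.5-fold became 0 with a minimum of 100 reads, since all 3 had fewer. The median log2 ratio of the members ranged from 0.02 with a minimum of 100 reads to 0.08 with TMM scaling. TMM factors shifted every log2 ratio by 0.01, and median-ratio factors shifted it by -0.02. With the latter, 2 of 52 log2 ratios changed sign, to -0.011 for homogentisate dioxygenase (comp54202_c0) and -0.0053 for the DAHP synthase comp43035_c0, neither of which differed beyond counting error. The NR descriptions gave 38 members, of which 33 are among the 58. No paired analysis was possible because each line has 1 library. Depth limits the rare copies: of the 52 unigenes with at least 20 reads, 5 had an interval that reached past 2-fold.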

Other observations

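Of the 9 unigenes that carry the words of the rule but no assigned gene, 5 had at least 20 reads and none was called. Besides the DAHP synthase comp51009_c0 and the PAT1 unigene comp53851_c0, these were an ADT2-type arogenate dehydratase, comp46131_c0, with 60 reads in brown seeds and 46 in yellow seeds (ratio 0.778, 95% interval 0.518 to 1.16), a dehydroquinate dehydratase/shikimate dehydrogenase, comp34916_c0, with 19 and 16, and the tryptophan synthase beta chain TSB1, comp36086_c0, with 18 and 12. All 9 were named after their values were seen. Together they held 6353 reads in brown seeds and 6830 in yellow seeds. Of the 5, only the DAHP synthase had a ratio above 1.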
